A study of Mus musculus with 2 samples.

Results

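The solute carrier (Slc) genes described here are those expressed in lung dendritic cells of the mouse. They are the rows of the count matrices whose symbol begins with Slc and a digit, other than Slc2a1, Slc2a3 and Slc16a3, that reached 10 CPM in at least 1 of 2 libraries. CPM is a gene's count of unique molecular identifiers (UMIs, each marking a captured transcript) per 1000000 UMIs of the summed cells. The rule kept 92 of 372 Slc rows, in matrices of 31053 rows of which 6610 reached the same level. Library levels chose the members, so that they are expressed is not a result. The members just inside the limit were Slc35a2, Slc9a8 and Slc22a15, whose higher library stood at 10.1, 10.2 and 10.2 CPM. Just outside were Slc36a3os at 9.07 CPM and Slc41a3 and Slc25a45 at 9.01 CPM each.

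Conventional dendritic cells, which take up antigen in tissue and carry it to lymph nodes, come in a pair of main kinds. Single-cell libraries were made from lungs of C57BL/6 mice aged 8 to 10 weeks at steady state, 1 of cells sorted as CD172a+ (cDC2) and 1 of cells sorted as XCR1+ (cDC1), and both kinds of cell had been released with dispase. No mouse carried a named allele or treatment, and how many animals were pooled is not stated in the labels. After removal of barcodes under 500 genes or 1000 UMIs or above 10% mitochondrial UMIs, the cDC2 library held 2835 cells with 38613693 UMIs and the cDC1 library 2574 cells with 35071861 UMIs. With 1 library per sort there are no replicates and no test was possible. All intervals are 95% counting intervals (exact Poisson, or exact conditional binomial for a ratio), and a 2-fold ratio is a rule of size.

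The sort genes followed the labels, with Sirpa (encoding CD172a) at 122.6 CPM in the cDC2 library and 5.62 CPM in the cDC1 library, and Xcr1 at 4.84 CPM in the cDC2 library and 248 CPM in the cDC1 library. A minority of cells did not. In the cDC2 library 23 mature, 3 Ccr7-positive, 41 resting and 18 other cells carried more UMIs of 10 cDC1 markers than of 10 cDC2 markers, and in the cDC1 library 6, 28, 26 and 9 such cells carried more cDC2 markers. They were kept apart from the states below, and where they change a value it is given with them. The libraries shared 5 cell barcodes among the kept cells. Markers of macrophages and monocytes summed to 1128 CPM in the cDC2 library and 76.1 CPM in the cDC1 library, and markers of neutrophils to 416.9 CPM in the cDC2 library and 47.3 CPM in the cDC1 library. Their part in the library values was not tested, and values without those cells are given for the members below.

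Solute carriers are membrane proteins that move amino acids, sugars, metals, nucleosides, lipids and ions across the plasma membrane and the membranes of lysosomes, mitochondria and the Golgi. In dendritic cells and macrophages several sit on endosomes and lysosomes, where antigen is degraded and where nucleic acid and peptide sensors meet their ligands. Members were grouped by the family number in their symbol, and 4 of them (Slc9a3r1, Slc9a3r2, Slc7a6os and Slc4a1ap) are not carriers but bear a carrier's name as regulators, adaptors or neighbours.

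The 92 members took up 0.448% of UMIs in the cDC2 library (0.446 to 0.450) and 0.420% in the cDC1 library (0.418 to 0.422). The most abundant was Slc25a3, the mitochondrial phosphate carrier, at 504 CPM in the cDC2 library and 520 CPM in the cDC1 library. Next came Slc25a5, which exchanges ADP for ATP across the inner mitochondrial membrane, at 349 CPM in the cDC2 library and 381 CPM in the cDC1 library. Slc6a6, the taurine carrier, stood at 301 CPM in the cDC2 library and 285 CPM in the cDC1 library. Slc38a1 and Slc38a2, which take up glutamine and other neutral amino acids with sodium, stood at 224 and 219.8 CPM in the cDC2 library and at 176 and 216 CPM in the cDC1 library. Slc3a2, the heavy chain that brings several amino acid carriers to the cell surface, stood at 200.7 CPM in the cDC2 library and 308 CPM in the cDC1 library. Slc7a5, a light chain that pairs with Slc3a2, was below the limit at 4.56 CPM in the cDC2 library and 3.25 CPM in the cDC1 library. The iron exporter Slc40a1 had 7 UMIs in the cDC2 library against 2 in the cDC1 library, and Slc37a2 and Slc8a1 also stayed below 10 CPM. Among the members above 200 CPM in either library, only Slc25a20 and Slc15a3 were 2-fold apart.

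**Figure D1:**
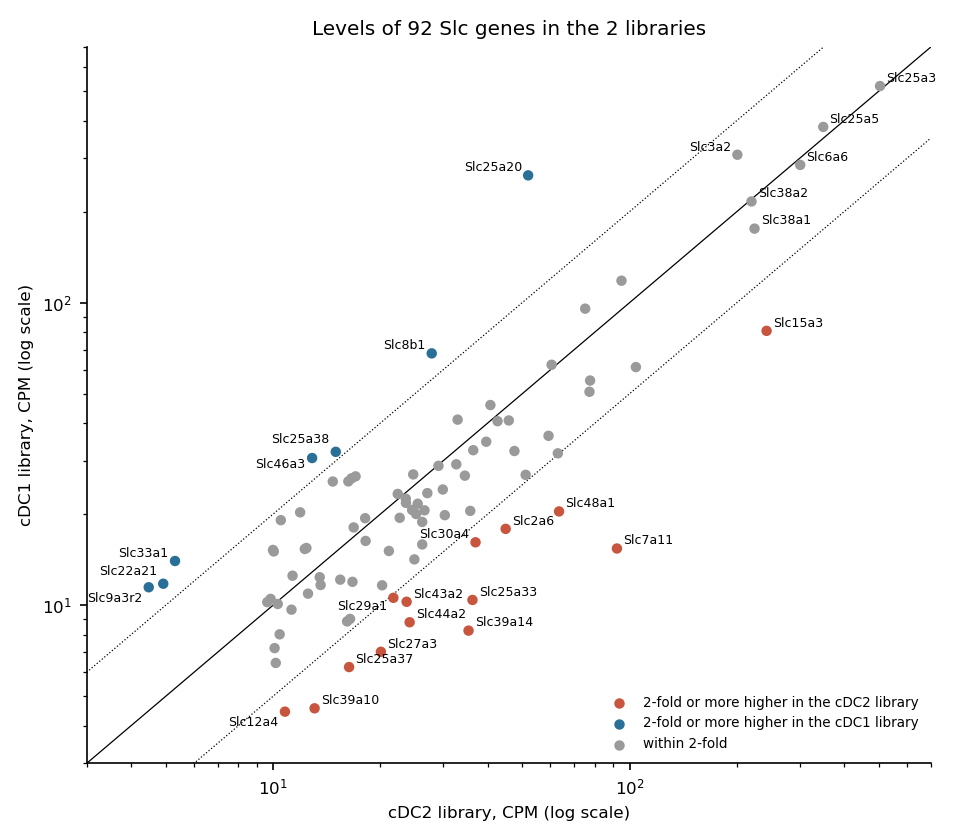
CPM of each of the 92 members in the cDC2 library (horizontal) and the cDC1 library (vertical), both on log scales, each point 1 gene. The solid line marks equal levels and the dotted lines 2-fold, with 14 genes beyond it toward the cDC2 library, led by Slc7a11, and 7 toward the cDC1 library, led by Slc25a20.

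Between the sorts, 14 of 92 members were 2-fold or more higher in the cDC2 library (15.2%), where 7.79% of all 6610 genes at the level were. In the cDC1 library 7 members were 2-fold or more higher (7.61%), where 5.51% of all genes were, and 71 members lay within 2-fold. The median log2 ratio, cDC2 over cDC1, was 0.20 over the members and 0.05 over all genes. Members that reached 10 CPM in only 1 library had to lean that way, which holds for 12 in the cDC2 library against 6 in the cDC1 library. Among the 74 at the level in both libraries, 8 were 2-fold higher in the cDC2 library against 4 in the cDC1 library.

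The member furthest apart in the direction of the cDC2 library was Slc7a11 (ENSMUSG00000027737; chromosome 3, 49892526 to 50443614, minus strand, GRCm38), the light chain of the exchanger that imports cystine for glutathione. It stood at 92.2 CPM in the cDC2 library and 15.4 CPM in the cDC1 library, 5.99-fold higher (5.47 to 6.57). Most of its UMIs in the cDC1 library lay outside the sort's own cells. Of 540 UMIs, 29.1% came from the 28 Ccr7-positive cells with cDC2 markers, 20.2% from 5 cells with macrophage or monocyte markers, 13.3% from the 26 resting cells with cDC2 markers and 14.6% from the 2152 resting cells of the sort itself. Among matched resting cells alone it stood at 61.5 CPM in cDC2 and 2.82 CPM in cDC1 cells, 21.8-fold higher (17.3 to 27.7).

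The 250 bases before the RefSeq start of 3 genes are printed here because they are the leading cDC2 gene, the leading cDC1 gene and the gene furthest below resting levels in mature cDC1 cells. Capitals mark TGATGNAA, the core of the element bound by the stress factor ATF4, on either strand.
Slc7a11: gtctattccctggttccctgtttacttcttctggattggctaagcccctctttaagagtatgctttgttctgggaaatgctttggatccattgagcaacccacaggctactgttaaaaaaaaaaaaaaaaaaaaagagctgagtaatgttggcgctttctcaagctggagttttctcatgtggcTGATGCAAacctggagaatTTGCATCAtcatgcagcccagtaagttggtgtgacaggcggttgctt
Slc25a20: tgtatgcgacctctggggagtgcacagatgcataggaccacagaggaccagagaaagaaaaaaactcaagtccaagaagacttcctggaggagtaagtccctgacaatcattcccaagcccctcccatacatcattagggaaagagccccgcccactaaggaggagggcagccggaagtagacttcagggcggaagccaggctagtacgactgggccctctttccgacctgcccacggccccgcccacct
Slc9a9: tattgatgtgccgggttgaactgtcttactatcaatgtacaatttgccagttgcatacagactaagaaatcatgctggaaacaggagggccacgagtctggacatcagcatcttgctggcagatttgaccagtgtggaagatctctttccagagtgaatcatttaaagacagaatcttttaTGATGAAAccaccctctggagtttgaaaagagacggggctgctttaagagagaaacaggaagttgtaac
These windows lie at chr3:50443614-50443863 (minus strand), chr9:108661886-108662135 (plus strand) and chr9:94669642-94669891 (plus strand) of GRCm38.p6. The Slc7a11 window holds the letters on both strands, as TGATGCAA and, downstream of it, TTGCATCA. The Slc9a9 window holds them on 1 strand, and the Slc25a20 window does not. Over 250 bases before the start they occur in 3.53% of 27025 genes' windows and in 4 of the 71 members with a RefSeq window (Slc7a11, Slc7a7, Slc9a9 and Slc50a1). In mature cells Slc7a11 lay above resting levels and Slc9a9, on 1 UMI in each library, below them, and a link to the letters was not tested. The antioxidant response core TGACNNNGC, searched on both strands, occurs in 16 of the 71 (22.5%) and in 10.1% of all windows, and not in that of Slc7a11. On both strands, GAGGAAGT (the PU.1 element) occurs in 4 of the 71 and in 2.44% of all windows, CACGTGAC (the CLEAR element of lysosomal genes) in 2 and in 1.89%, and the NF-kB element in 4 and in 7.01%, and none of these in the windows printed. All windows were counted whatever the level of their gene, so the members were not set beside expressed genes alone. A match of letters is a description and does not show that a factor binds.

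The other cDC2-high members included several that handle metals, haem or the contents of lysosomes. Slc39a14, a zinc and manganese importer, stood at 35.4 CPM in the cDC2 library and 8.24 CPM in the cDC1 library, 4.29-fold higher (3.78 to 4.89). Slc48a1, which moves haem out of endosomes and lysosomes, stood at 63.4 CPM in the cDC2 library and 20.4 CPM in the cDC1 library, 3.11-fold higher (2.86 to 3.38). Slc15a3, a lysosomal carrier of histidine and short peptides including bacterial ones, stood at 242 CPM in the cDC2 library and 80.7 CPM in the cDC1 library, 3.003-fold higher (2.88 to 3.13). Its relative Slc15a4, which serves endosomal Toll-like receptor signalling, lay within 2-fold, at 59.3 CPM in the cDC2 library and 36.3 CPM in the cDC1 library. Of the 16 metal carriers 3 were 2-fold higher in the cDC2 library, and none was in the cDC1 library, beside 7.79% and 5.51% of all genes. Among the 3, Slc39a14 and Slc39a10 reached 10 CPM in the cDC2 library only and so had to lean that way. All 5 peptide and nucleoside carriers had a ratio above 1, as did 3667 of 6610 genes, and 2 of the 5 were past 2-fold.

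The remaining cDC2-high members span many cargoes. Slc25a33, a mitochondrial carrier of pyrimidine nucleotides, stood at 36.3 CPM in the cDC2 library and 10.4 CPM in the cDC1 library. Slc27a3, an acyl-CoA synthetase of the fatty acid transport family, stood at 20.1 CPM in the cDC2 library and 7.01 CPM in the cDC1 library. Slc2a6, a hexose carrier of lysosomes, stood at 44.9 CPM in the cDC2 library and 17.9 CPM in the cDC1 library. Slc39a10, Slc44a2, Slc25a37, Slc12a4, Slc43a2, Slc30a4 and Slc29a1 were between 2.06-fold and 2.87-fold higher in the cDC2 library.

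In the cDC1 library Slc25a20 (ENSMUSG00000032602; chromosome 9, 108662088 to 108684641, plus strand), which brings acylcarnitines into mitochondria for fatty acid oxidation, stood furthest apart. Its level was 52.0 CPM in the cDC2 library and 264 CPM in the cDC1 library, 5.07-fold higher in the cDC1 library (4.83 to 5.33). Slc8b1, the sodium-calcium exchanger of mitochondria, stood at 27.9 CPM in the cDC2 library and 68.0 CPM in the cDC1 library, 2.44-fold higher in the cDC1 library (2.27 to 2.62). Slc25a38, a mitochondrial glycine carrier, Slc46a3, a lysosomal carrier, Slc33a1, which brings acetyl-CoA into the endoplasmic reticulum, Slc22a21, a carnitine carrier, and Slc9a3r2, a scaffold protein, were between 2.14-fold and 2.64-fold higher in the cDC1 library. The 21 members of the Slc25 family, counted here as the mitochondrial carriers, ran both ways, with log2 ratios of -2.34 to 1.80 and a median of -0.09. They summed to 1403 CPM in the cDC2 library and 1656 CPM in the cDC1 library. Of them 2 were 2-fold higher in the cDC2 library (9.52%) and as many, 2, in the cDC1 library (9.52%), beside the 7.79% and 5.51% of all genes. By its family number Slc8b1 was counted with the ion and pH carriers and is not in these counts.

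Within matched resting cells (outside every gate, 1494 in the cDC2 library against 2152 in the cDC1 library) all 21 of these members stayed past 2-fold in the same direction. Resting cells hold 19885456 of the 38613693 UMIs of the cDC2 library and 27992359 of the 35071861 UMIs of the cDC1 library. The 21 were chosen on those UMIs, so their staying is not independent of the choice, and other called genes that stay were not counted. The ratio was 2-fold or more higher in cDC2 for 16 of 90 measured members, where 8.79% of all genes were, and higher in cDC1 for 8, where 6.31% were. The additions included Slc35b2 in cDC2 and Slc11a1 in cDC1. Slc11a1 (the lysosomal metal carrier known as NRAMP1) stood at 4.27 CPM in resting cDC2 and 20.5 CPM in resting cDC1, 4.79-fold higher in cDC1 (3.81 to 6.09). Over whole libraries it stood at 10.5 CPM in the cDC2 library and 19.1 CPM in the cDC1 library, and 36.5% of its UMIs in the cDC2 library came from 118 cells gated by macrophage or monocyte markers, 15.3% from 227 cells gated by Cd7 and Plac8, and 14.5% from 78 cells gated by markers of other cell types.

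**Figure D2:**
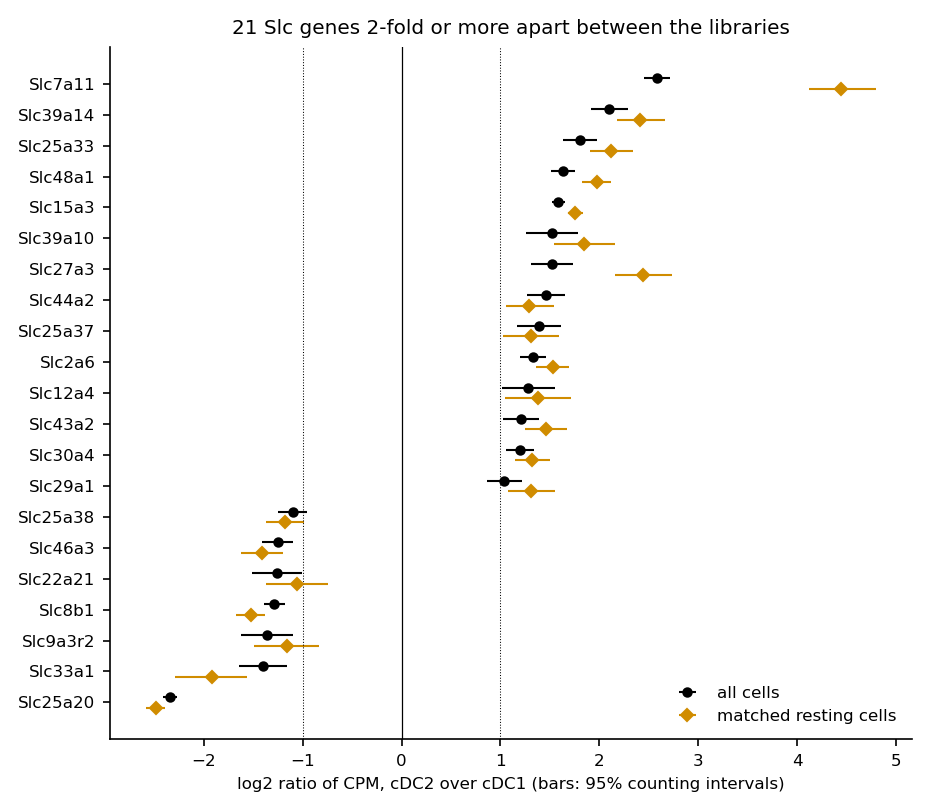
Log2 ratio of CPM, cDC2 over cDC1, for the 21 members 2-fold or more apart, over all cells (circles) and over matched resting cells (diamonds), with 95% counting intervals. All 21 stay beyond the dotted 2-fold lines in resting cells, which are a large part of all cells, and the ratio of Slc7a11 is larger there.

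The same members were read in the cells whose markers favoured the other sort. In the 41 such resting cells of the cDC2 library, which carry cDC1 markers, Slc25a20 stood at 195 CPM, against 51.8 CPM in that library's matched resting cells and 290 CPM in the cDC1 library's. In the 26 such resting cells of the cDC1 library, which carry cDC2 markers, Slc7a11 stood at 161 CPM and Slc15a3 at 349 CPM, against 2.82 CPM of Slc7a11 and 69.2 CPM of Slc15a3 in that library's matched resting cells. Of the 21 members, 14 lay nearer the other library's resting level for the cDC2-library cells and 20 for the cDC1-library cells, in sums of 516972 and 446996 UMIs. Markers defined these cells and no member did, but the 21 were chosen as apart between these same libraries. No such count was made over all genes, so whether these counts are particular to Slc genes is not known.

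Shares of cells with a UMI differed in the same direction after each cell was thinned to 5000 UMIs, which left out 135 cells of the cDC2 library and 71 of the cDC1 library. Slc7a11 was then seen in 21.1% of cells of the cDC2 library (19.6 to 22.7) and 2.80% of the cDC1 library (2.19 to 3.52), and before thinning in 32.1% of cDC2-library and 4.70% of cDC1-library cells. Slc25a20 was seen in 20.8% of thinned cells of the cDC2 library and 63.6% of the cDC1 library, and Slc15a3 in 58.8% of the cDC2 library and 24.5% of the cDC1 library. In cells gated by markers of other cell types, 26 in the cDC2 library against 12 in the cDC1 library after thinning, the share for Slc25a20 was 38.5% (20.2 to 59.4) in the cDC2 library against 25% (5.49 to 57.2) in the cDC1 library. Those cells are too few, and not known to lack these genes, to set a background from free RNA.

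Mature cells were gated by Fscn1 and 12 maturation markers, and resting cells of the same library were their baseline. There were 42 mature cells in the cDC2 library against 76 in the cDC1 library, holding 559368 and 1017768 UMIs, so that 1 UMI was worth far more CPM than in resting cells. In the cDC2 library 5 of 87 measured members were 2-fold or more higher in mature cells, where 13% of all genes were, and 9 were lower, where 10.0% were, and TMM scaling (edgeR's trimmed mean of ratios) gives 3 higher and 12 lower, while averaging per-cell CPM gives 8 higher and 15 lower. In the cDC1 library 11 of 81 were higher, where 15.2% of all genes were, and 17 were lower, where 14.5% were. The members' shares were 5.75% and 10.3% in the cDC2 library and 13.6% and 20.99% in the cDC1 library. Of the 76 members measured in both libraries 7 passed 2-fold the same way in both (9.21%), where 807 of 6035 genes did (13.4%), and the libraries are different sorts, not replicates.

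Slc7a11 was higher in mature cells of both sorts. It stood at 221.7 CPM in mature against 61.5 CPM in resting cells of the cDC2 library, 3.61-fold higher (2.97 to 4.34). Among cDC1 cells it stood at 45.2 CPM in mature against 2.82 CPM in resting cells, 16.01-fold higher (10.9 to 23.3), resting on 46 and 79 UMIs. Its level in mature cells of the cDC1 library stayed below that of resting cDC2 cells. The 23 mature cells of the cDC2 library with cDC1 markers held it at 188 CPM (135 to 254), above both.

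The members lower in mature cells of both sorts were Slc9a9, Slc35c2, Slc1a5, Slc30a5 and Slc38a9. Slc9a9, a sodium-proton exchanger of endosomes, had 1 UMI in mature cells of each library, which is 1.79 CPM against 17.4 CPM in resting cells of the cDC2 library (ratio 0.103, 0.00259 to 0.576). Among cDC1 cells it is 0.983 CPM against 27.1 CPM in resting cells (ratio 0.0363, 0.000917 to 0.203). In mature cDC2 cells Slc29a1, the nucleoside carrier of the plasma membrane, lay further down, with 1 UMI, which is 1.79 CPM against 20.6 CPM in resting cells (ratio 0.0867, 0.00219 to 0.486). Slc1a5, a glutamine carrier of the plasma membrane, stood at 30.4 CPM in mature against 80.7 CPM in resting cells of the cDC2 library, 2.66-fold lower (1.65 to 4.57). Among cDC1 cells it stood at 23.6 CPM in mature against 100.5 CPM in resting cells, 4.26-fold lower (2.86 to 6.66). For Slc9a9 and Slc1a5 the mature level lay well under that of resting cells in both libraries. Slc29a1 was not measured in this comparison of cDC1 cells, at 1.97 CPM in mature against 8.32 CPM in resting cells. Slc35c2, a Golgi carrier linked to fucose addition, stood at 10.7 CPM in mature against 36.6 CPM in resting cells of the cDC2 library and at 6.88 CPM in mature against 42.8 CPM in resting cells of the cDC1 library. Slc38a9, the lysosomal arginine sensor of the mTORC1 pathway, stood at 7.15 CPM in mature, on 4 UMIs, against 25.2 CPM in resting cDC2 cells. Among cDC1 cells it stood at 8.84 CPM in mature, on 9 UMIs, against 17.9 CPM in resting cells. Slc30a5, a zinc carrier of the secretory pathway, was 2.12-fold lower in mature cDC2 cells with an interval that includes no change (0.968 to 5.82), and 2.04-fold lower in mature cDC1 cells (1.13 to 4.11).

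**Figure D3:**
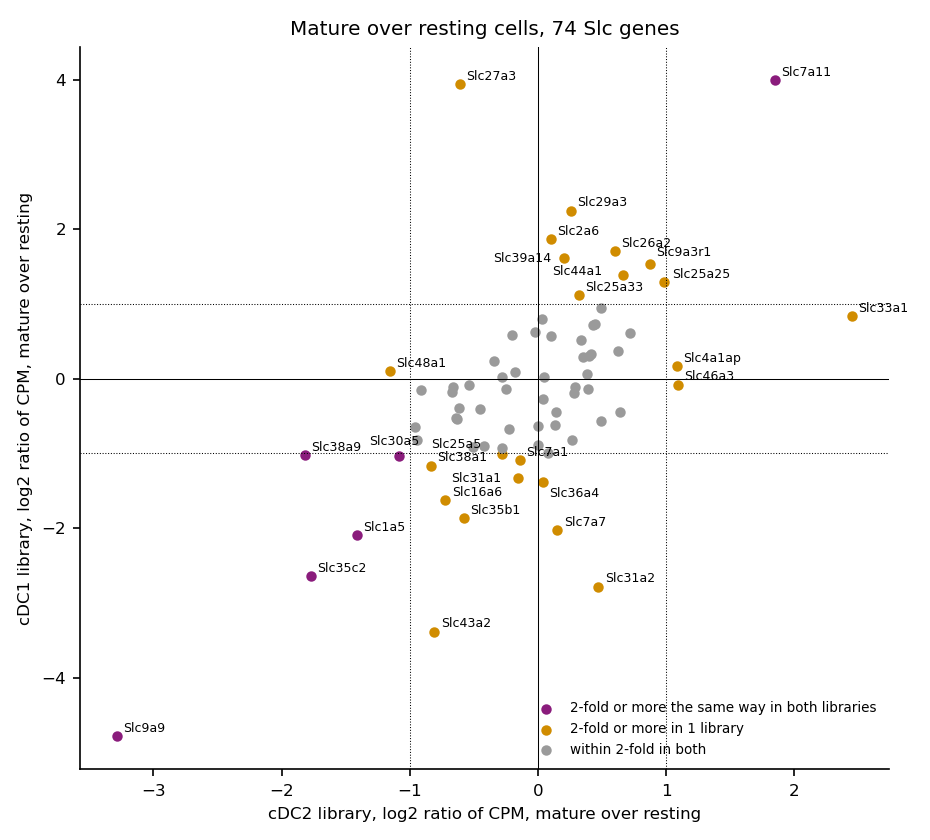
Log2 ratio of CPM, mature over resting cells, in the cDC2 library (horizontal) and the cDC1 library (vertical) for 74 of the 76 members measured in both, each point 1 gene. Slc7a11 lies beyond 2-fold upward in both and 5 members downward in both, while Slc27a3 is high in mature cDC1 cells and not in mature cDC2 cells.

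A further 9 members passed 2-fold upward in mature cells of the cDC1 library without being 2-fold apart in the cDC2 library. They are 9 of 11 higher members, and among all genes 512 of 999 were of that kind (51.3%). The difference between the sorts was not tested. Slc27a3 stood at 69.8 CPM in mature against 4.54 CPM in resting cDC1 cells, 15.4-fold higher (11.3 to 20.7). In matched cDC2 cells it stood at 16.1 CPM in mature against 24.6 CPM in resting cells, a ratio of 0.654 (0.297 to 1.25). The 23 mature cells of the cDC2 library with cDC1 markers held it at 157 CPM, and with them kept in, the log2 ratio in that library becomes 1.23. Slc29a3, a lysosomal nucleoside carrier, stood at 74.7 CPM in mature against 15.7 CPM in resting cDC1 cells and at 34.0 CPM in mature against 28.4 CPM in resting cDC2 cells. Slc2a6 stood at 57.0 CPM in mature against 15.6 CPM in resting cDC1 cells and at 48.3 CPM in mature against 45.0 CPM in resting cDC2 cells. For Slc29a3 and Slc2a6 the resting cDC2 level was the higher of the resting levels. Unlike Slc27a3, they were below their mature cDC1 levels in the 23 mature cells with cDC1 markers. Slc29a3 stood there at 17.9 CPM, on 4 UMIs, and Slc2a6 at 22.4 CPM, on 5 UMIs. The others were Slc26a2, Slc9a3r1, Slc39a14, Slc44a1, Slc25a25 and Slc25a33, between 2.18-fold and 3.26-fold higher in mature cDC1 cells.

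By cargo, of 12 measured amino acid carriers 7 were 2-fold or more lower in mature cDC1 cells, where 14.5% of all genes were, and 1 was higher, Slc7a11, where 15.2% were, with a median log2 ratio of -1.05. Of the 7, Slc43a2, Slc7a7, Slc36a4 and Slc38a9 rested on 1, 4, 4 and 9 UMIs in mature cells. Of the same 12 in the cDC2 library 2 were lower, where 10.0% of all genes were, and 1 was higher, where 13% were, with a median of 0.10. Slc38a1, for example, stood at 80.6 CPM in mature against 180 CPM in resting cDC1 cells, 2.24-fold lower (1.80 to 2.82), and at 128.7 CPM in mature against 229 CPM in resting cDC2 cells. Slc43a2, a carrier that lets large neutral amino acids out, had 1 UMI in mature cDC1 cells, a ratio of 0.0958 to resting (0.00242 to 0.538). Slc6a6 and Slc3a2 ran the other way without passing 2-fold, Slc6a6 at 465 CPM in mature against 279 CPM in resting cDC1 cells and Slc3a2 at 402 CPM in mature against 309.5 CPM in resting cDC1 cells. Slc7a1, Slc7a7 and Slc36a4 lay above resting cDC1 levels in the 23 cDC2-library mature cells with cDC1 markers. These values rest on 14, 6 and 3 UMIs, and Slc1a5, Slc38a1, Slc38a9 and Slc43a2 lay below resting cDC1 levels there. Against the same shares over all genes, of 15 measured metal carriers 4 were lower and 1 higher in mature cDC1 cells, and 2 were lower in mature cDC2 cells. The copper carrier Slc31a2 stood at 3.93 CPM in mature against 27.0 CPM in resting cDC1 cells. Of 20 measured mitochondrial carriers of the Slc25 family in cDC1 cells, 2 were higher (Slc25a25 and Slc25a33) and 1 was lower, Slc25a5, at 186 CPM in mature against 375 CPM in resting cells.

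A further gate took cells with Ccr7, the receptor that guides dendritic cells to lymph nodes, but little Fscn1. There were 536 in the cDC2 library against 43 in the cDC1 library. In these cells the 12 maturation markers summed to 6031 CPM in the cDC2 library and 13658 CPM in the cDC1 library. Mature cells held them at 16722 CPM (cDC2) and 16995 CPM (cDC1), and resting cells at 1995 CPM (cDC2) and 1205 CPM (cDC1). The sorts are thus not matched for maturation in this gate, and differences between them here cannot be told apart from that. In the cDC2 library 1 of 85 measured members was 2-fold or more higher than in resting cells, where 0.801% of all genes were, and 8 were lower, where 3.50% were. TMM scaling, or a lower Ccr7 threshold, gives 3 lower in place of 8. For the cDC1 library 8 of 80 were higher, where 11.4% were, and 16 were lower, where 12.9% were. A lower threshold, which takes in more cells, gives 8 lower in place of 16. Slc7a11 was the member higher in both. It stood at 148 CPM in Ccr7-positive against 61.5 CPM in resting cDC2 cells, 2.41-fold higher (2.22 to 2.61), and at 22.2 CPM in Ccr7-positive against 2.82 CPM in resting cDC1 cells, on 14 UMIs. In the cDC1 library the log2 ratio of 2.97 becomes 4.97 with the 28 cells of cDC2 markers kept in. Slc35c2, Slc12a9, a cation-chloride cotransporter relative, and Slc20a1, a sodium-phosphate cotransporter, were lower in both. Slc20a1 stood at 31.9 CPM in Ccr7-positive against 70.8 CPM in resting cDC2 cells and at 31.6 CPM in Ccr7-positive against 63.8 CPM in resting cDC1 cells.

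Slc15a3 was higher in these cells than in mature or resting ones, by less than 2-fold over resting cDC2 cells. In the cDC2 library it stood at 150 CPM in mature, 378 CPM in Ccr7-positive and 234 CPM in resting cells. Among cDC1 cells it stood at 48.1 CPM in mature, 259 CPM in Ccr7-positive and 69.2 CPM in resting cells. Mature over Ccr7-positive cells, it was 2.52-fold lower in the cDC2 library (2.03 to 3.17) and 5.39-fold lower in the cDC1 library (3.90 to 7.58). Over this step 16.9% of all genes were 2-fold higher and 5.82% lower in the cDC2 library, against 6 and 9 of 84 members. In the cDC1 library 11.0% of all genes were higher and 9.17% lower, against 7 and 12 of 73 members. Slc15a3 and Slc30a5 were lower in both libraries, Slc30a5 with intervals that include no change, and Slc33a1 and Slc25a25, a calcium-regulated carrier of ATP and phosphate in mitochondria, were higher in both. Slc33a1 stood at 21.5 CPM in mature against 5.29 CPM in Ccr7-positive cDC2 cells and at 26.5 CPM in mature against 9.49 CPM in Ccr7-positive cDC1 cells. Slc9a9 stood at 15.1 CPM in Ccr7-positive cDC2 cells, near the resting 17.4 CPM, but at 1.58 CPM in Ccr7-positive cDC1 cells, on 1 UMI, against 27.1 CPM at rest.

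Cycling cells, gated by 12 genes of cell division, kept nearly all members within 2-fold of resting cells, by the rule of size. Their median depth was 20362 UMIs per cell against 12541 in resting cells of the cDC2 library, and 20345 against 12592 in resting cells of the cDC1 library. In the cDC2 library (255 cells) 0 of 88 members were 2-fold higher, where 7.76% of all genes were, and 0 were lower, where 0.840% were. In the cDC1 library (197 cells) 2 of 82 were higher, where 10.2% of all genes were, and 0 lower, where 0.407% were. These 2 were Slc29a1 and Slc22a15. Slc29a1 stood at 26.6 CPM in cycling against 8.32 CPM in resting cDC1 cells, 3.19-fold higher (2.51 to 4.03). The median log2 ratio over members was 0.08 in cDC2 cells and 0.09 in cDC1 cells, against 0.19 and 0.26 over all genes. With TMM scaling, which lowers all these ratios, 1 cDC2 member was lower, and in cDC1 cells 1 was higher and 3 lower.

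Other gated cells of the CD172a sort differed from its resting cells in other carriers. The 118 cells with macrophage or monocyte markers had 15 of 89 members 2-fold higher than resting cDC2 cells, where 15.3% of all genes were, and 6 lower, where 4.43% were. Slc11a1, which strips metal ions from the phagosome, stood at 77.7 CPM in these cells against 4.27 CPM in resting cells, 18.2-fold higher (13.8 to 24.0). Slc7a11 stood at 228 CPM in them against 61.5 CPM in resting cells, and Slc29a3 at 83.5 CPM in them against 28.4 CPM in resting cells. Slc36a4, an amino acid carrier, and Slc5a3, which imports myo-inositol, were 3.41-fold (2.61 to 4.41) and 3.19-fold (2.49 to 4.05) higher. Slc41a1, a magnesium carrier, was lower at 25.7 against 94.3 CPM in resting cells, and Slc30a4, a zinc carrier of vesicles, at 15.8 against 38.1 CPM in resting cells. The 78 cells of other cell types in this library, whose 5 neutrophil markers summed to 27994 CPM, held both Slc7a11 and Slc11a1 at higher levels than these, Slc7a11 at 435 CPM (382 to 493) and Slc11a1 at 105 CPM (80.0 to 136). They gave 6.86% of the Slc7a11 UMIs of the library and 14.5% of its Slc11a1 UMIs.

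The 227 cells gated by Cd7 and Plac8 had 4 of 89 members 2-fold higher than resting cDC2 cells, where 6.46% of all genes were, and 8 lower, where 5.55% were. Slc11a1 stood at 27.1 CPM against 4.27 CPM in resting cells, 6.35-fold higher (4.50 to 8.91), and Slc44a2, a choline-like carrier, at 75.7 CPM against 19.5 CPM in resting cells, 3.88-fold higher (3.22 to 4.65). Among measured members Slc27a3 was furthest below resting cells, at 3.06 CPM against 24.6 CPM at rest. Slc39a14 stood at 11.8 CPM here against 34.1 CPM in resting cells, and Slc7a11 at 30.2 CPM here against 61.5 CPM in resting cells. Slc41a1 and Slc30a4 were 2-fold lower in both kinds of gated cell, and Slc11a1 was the member higher in both.

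**Figure D4:**
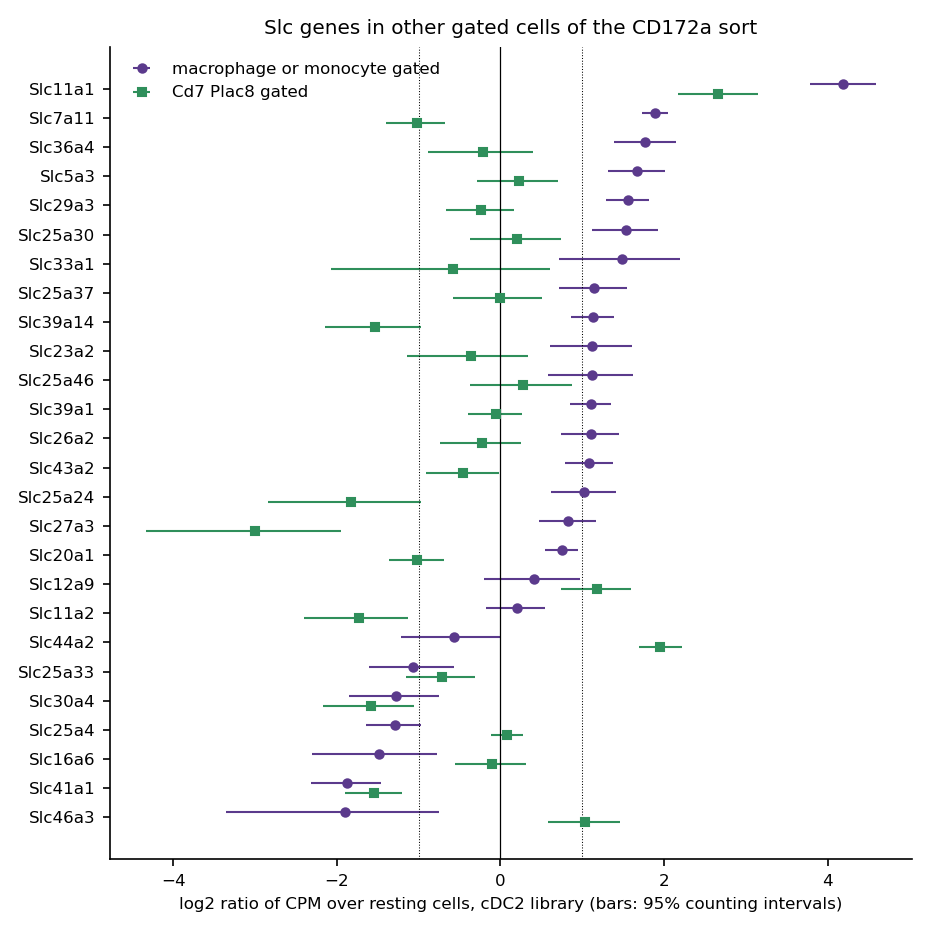
Log2 ratio of CPM over resting cells of the cDC2 library for the 26 members 2-fold or more apart in macrophage or monocyte gated cells (circles) or Cd7 Plac8 gated cells (squares), with 95% counting intervals. Slc11a1 is high in both, while Slc7a11 and Slc39a14 lie on opposite sides of 0.

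Across the 13 gated states of at least 100000 UMIs, Slc25a44 had levels ranked most like those of Slc7a11, with a Spearman coefficient of 0.86, followed by Slc39a14 with 0.74, and Slc9a3r1 had 0.69. Without the cells of other cell types in either library, which leaves 11 states and was added after the data were seen, Slc39a14 comes first with 0.97 and Slc25a44 has 0.85. In those cells of the cDC2 library Slc7a11 stood at 435 CPM and Slc39a14 at 12.5 CPM, on 7 UMIs. For Slc25a20 the most alike was Slc8b1, with 0.84 over 13 states and 0.80 over 11. These states share libraries and depth, so the coefficients are descriptions.

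Also read were 36 genes chosen for this report, which bind, sense or control transporters or store their cargo, with metal and stress genes. Of 29 at the level, 6 were 2-fold higher in the cDC2 library, where 7.79% of all genes were. None was 2-fold higher in the cDC1 library, where 5.51% of all genes were. The widest was Emb, embigin, a chaperone of monocarboxylate carriers, at 173 CPM in the cDC2 library and 6.10 CPM in the cDC1 library. The metal-binding metallothioneins Mt1 (2671 CPM in cDC2, 661 CPM in cDC1) and Mt2 (671 CPM in cDC2, 134 CPM in cDC1) and the ferritin chain Fth1 were among them. Atf4 lay within 2-fold, at 146 CPM in the cDC2 library and 122 CPM in the cDC1 library. Of 29 measured in cDC2 cells 2 were 2-fold higher and 9 lower in mature than in resting cells, beside 13% and 10.0% of all genes. Of 27 in cDC1 cells 3 were higher and 4 lower, beside 15.2% and 14.5%. In mature cells of both sorts Lamtor4 and Hmox1 were 2-fold lower and Rptor, a subunit of mTORC1, was higher, at 50.1 CPM in mature against 17.6 CPM in resting cDC2 cells and at 76.6 CPM in mature against 19.4 CPM in resting cDC1 cells. Hmox1 stood at 3.58 CPM in mature cDC2 and 5.90 CPM in mature cDC1 cells, and Lamtor4 at 16.1 and 3.93 CPM. These are few UMIs, as 1 UMI is 1.79 CPM in mature cDC2 and 0.983 CPM in mature cDC1 cells.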

How the data were processed

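Deposited values are raw UMI counts per gene and cell barcode, made by the authors with Cell Ranger 3.2 on mm10 per the submitters' processing notes, while the file headers give software version 3.0.2. Seurat is named there without a role. Per the labels' protocols the 10x Chromium v3.1 kit was used and the libraries shared a sequencing lane. Gene length plays little part in counts of this 3' kit. Coordinates come from GENCODE vM21 (GRCm38), matched by ID for all 92 members, and promoter windows from RefSeq (GRCm38.p6), matched by symbol for 71. Of the members, 4 overlap another gene on the same strand, Slc35a3, Slc39a10 and Slc5a3 among them, where reads may be split. Counts cover all members, of which 2 are not reported here by name.

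Barcodes with under 500 genes, under 1000 UMIs or over 10% mitochondrial UMIs were left out. This removed 210 of 3045 barcodes (cDC2 library) and 365 of 2939 (cDC1 library). Median depth per cell was 12655 UMIs (cDC2) and 12866 (cDC1). No doublet caller was run, and cells above 2 times the median UMIs were left out as an alternative. Others changed the barcode filter, the cells summed, the minimum level, the fold, the gates and the scaling. UMIs were summed per library or state, scaled to CPM, and compared as ratios. A count of 0 was set to 3 counts. A gene was measured at 10 CPM in either sum. Intervals cover counting error only.

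Cells took the first gate that fitted, scored per 10000 UMIs: other cell types (20 of any of 6 lists), macrophage or monocyte (30), mature (60, with 3 UMIs of Fscn1), cycling (8), Cd7 Plac8 (25) and Ccr7 (10 with under 3 UMIs of Fscn1), else resting. Gate levels and the check of sort markers were set after the data were seen, and members and lists were chosen with earlier results of these data known. Named are the largest ratios and highest levels overall and by cargo, members past 2-fold in both libraries, and a short list of known carriers. Others were named as examples after their values were seen. On simulated counts with 4-fold changes in 200 of 6207 genes, the 2-fold rule recovered 100% between libraries, 98% for mature cDC2 and 99.5% for mature cDC1 cells. Of unchanged genes it called 0%, 3.13% and 0.966% in the same 3 comparisons. These counts were Poisson draws around 1 shared profile, so the shares cover counting error only and not variation between cells or animals. Python 3.11.15, NumPy 2.4.6, SciPy 1.17.1, R 4.3.3 and edgeR 4.0.16 (TMM factors only) were used.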

Additional observations from a re-analysis of the deposited data

Results flagged for a closer look

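Slc22a15, a member of the organic cation carrier family, was 2-fold apart in opposite directions between the sorts in the step from Ccr7-positive Fscn1-low to mature cells. It was higher in mature cells of the cDC2 library (log2 ratio 2.09), at 17.9 CPM in mature against 4.21 CPM in Ccr7-positive cells. It was lower in mature cells of the cDC1 library (log2 ratio -1.01), at 7.86 CPM in mature against 15.8 CPM in Ccr7-positive cells. The difference between the sorts was not tested, the mature values rest on 10 and 8 UMIs, and the interval of the ratio in the cDC1 library includes no change (0.170 to 1.40).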

How the results depend on the processing

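No paired analysis was possible because each sort has 1 library, and for the same reason no library could be left out. Of 104 counts under an alternative, 71 stayed within 1.5 times the reported count. Single members were followed only for a fixed part of those named, and of these none past 2-fold changed direction in the alternatives run. Slc27a3, within 2-fold in mature cDC2 cells, did change direction with the cells of cDC1 markers kept in. No alternative was run for mature over Ccr7-positive cells, or for macrophage or monocyte and Cd7 Plac8 gated cells. Between libraries (14 higher in cDC2, 7 in cDC1), a minimum of 5 CPM gave 13 in the cDC1 direction and of 20 CPM gave 4, and no minimum gave 64 higher in cDC2 and 43 in cDC1. A limit of 1.5-fold gave 27 higher in cDC2 and 15 in cDC1, and of 3-fold 5 and 1. Dropping all barcode filters, gated non-dendritic cells, cells above 2 times the median UMIs or cells of the other sort's markers (the last added after the data were seen) kept both counts within 1.5 times, as did TMM scaling and per-cell averaging. For mature over resting, 1.5-fold gave 13 up and 22 down in cDC2 and 20 up and 29 down in cDC1, and 3-fold gave 2 up and 5 down in cDC2 and 6 up and 8 down in cDC1. In cDC2, per-cell averaging gave 8 up and 15 down, and TMM 3 up. For Ccr7-positive cells, alternatives added after the data were seen gave 5 down (higher Ccr7 threshold), 3 down (lower threshold) and 3 down (TMM) in cDC2, against 8 reported, and 8 down in cDC1 with the lower threshold, against 16. For cycling cells, 1.5-fold gave 6 up and 6 down in cDC2 and 10 up and 5 down in cDC1, 3-fold gave 1 up in cDC1, per-cell averaging 1 up in cDC1, and a higher threshold 1 up in cDC2. TMM gave 1 down in cDC2, and 1 up and 3 down in cDC1, Slc15a3 and Slc25a20 among them. TMM moved all log2 ratios down by 0.30 in cycling cDC1, 0.23 in cycling cDC2 and 0.15 in mature cDC2 cells, and up by 0.17 in Ccr7-positive cDC2 cells. The cause of these changes was not tested. Mature and cDC1 Ccr7-positive sums hold 559368 to 1017768 UMIs, which limits members near 10 CPM there.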

Other observations

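Several Slc genes below 10 CPM in both libraries were well above it in a gated state, and these were chosen after their values were seen. Slc4a8, a sodium-driven bicarbonate exchanger, stood at 48.3 CPM in mature against 0.754 CPM in resting cDC2 cells and at 48.1 CPM in mature against 0.0714 CPM in resting cDC1 cells, 27 and 49 UMIs in mature cells. Slc22a23, an orphan of the organic ion family, stood at 19.7 CPM in mature cDC2 cells, on 11 UMIs against 1 in resting cells, and at 59.9 CPM in mature against 6.07 CPM in resting cDC1 cells. Slc25a10, the mitochondrial dicarboxylate carrier, stood at 37.3 CPM in mature against 5.50 CPM in resting cDC1 cells, and was also higher in cycling cells, at 16.2 CPM against 3.92 CPM in resting cDC2 cells and 17.8 CPM against 5.50 CPM in resting cDC1 cells.

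In cells of the cDC2 library with macrophage or monocyte markers, Slc7a8, an amino acid exchanger that pairs with Slc3a2, stood at 20.5 CPM against 0.453 CPM in resting cells. Slc9a4, a sodium-proton exchanger, stood at 36.8 CPM against 1.96 CPM in resting cells, and the nucleoside carrier Slc28a2 at 18.9 CPM against 0.754 CPM. In this library's cells of other cell types Slc28a2 was higher still, at 33.9 CPM on 19 UMIs. In Cd7 Plac8 gated cells Slc12a2, a sodium-potassium-chloride cotransporter, stood at 33.3 CPM against 4.63 CPM in resting cells. In cycling cDC2 cells Slc43a3, a purine nucleobase carrier, stood at 15.8 CPM against 2.56 CPM in resting cells.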
